A study of Mus musculus with 10 samples.

Results

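The visual cycle is the chain of enzymes, carriers and transporters that turns bleached visual pigment back into its light-sensitive form. A set of 10 genes of this chain was followed, taken from the deposited table of 36115 genes as every row whose gene name is Lrat, Rpe65, Rdh5, Rgr, Rlbp1, Rbp3, Abca4, Rdh8, Rdh12 or Rdh11. All 10 names had a row, and all 10 passed the filter on low counts. The data are RNA sequencing libraries of retinas from naive mice aged 3 months on a C57BL/6 background. There were 5 libraries of wild type (W1 to W5) and 5 with the genotype B6.129S2-Il6tm1Kopf/J on the label (K1 to K5), a line in which the gene of the cytokine interleukin-6 is disrupted in the germ line. The numbers follow accession order and pair nothing, and the labels give no sex, litter, date or batch and do not say whether each library is a separate animal. Genotype is the only contrast, and it asks how visual cycle transcripts of an uninjured retina differ with Il6 disrupted.

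After light turns 11-cis-retinal into all-trans-retinal in a photoreceptor, ABCA4 clears the product from the disc lumen and retinol dehydrogenases reduce it to all-trans-retinol. The carrier IRBP, encoded by Rbp3, shuttles retinoids across the space between photoreceptors and the retinal pigment epithelium. There LRAT esterifies the retinol, RPE65 isomerises the ester to 11-cis-retinol and RDH5 oxidises this to 11-cis-retinal, while CRALBP, encoded by Rlbp1, binds the 11-cis retinoids in the pigment epithelium and in Muller glia. The pigment epithelium lies outside the neural retina and largely stays in the eyecup when the retina is lifted out, so its transcripts reach a retinal library as far as that tissue comes along.

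Upstream sequence is shown for the 4 genes that hold the hexamer TAATCC or its reverse complement GGATTA. The homeobox factors CRX and OTX2 bind this core. These 4 genes did not all move together from library to library. In deviations from group means over the 10 libraries, Pearson r with Rpe65 was 0.983 in Rgr, -0.339 in Rbp3 and -0.465 in Abca4. Lrat (0.973) and Rdh5 (0.943) moved with Rpe65 and lack the hexamer. Capitals mark the hexamer. The windows run from 220 to 21 bases before the RefSeq start (GRCm38.p6), 5′ to 3′ on the strand of the gene, at chr3:159598961-159599160 (plus strand), chr14:37049035-37049234 (minus strand), chr14:33953783-33953982 (plus strand) and chr3:122044240-122044439 (plus strand).
Rpe65: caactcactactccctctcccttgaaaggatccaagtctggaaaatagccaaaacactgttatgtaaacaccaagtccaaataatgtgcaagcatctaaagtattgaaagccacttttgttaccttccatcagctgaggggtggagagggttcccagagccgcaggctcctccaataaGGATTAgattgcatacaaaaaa
Rgr: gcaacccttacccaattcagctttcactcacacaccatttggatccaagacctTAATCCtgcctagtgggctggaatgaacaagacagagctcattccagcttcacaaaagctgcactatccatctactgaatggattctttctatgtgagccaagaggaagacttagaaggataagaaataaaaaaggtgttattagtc
Rbp3: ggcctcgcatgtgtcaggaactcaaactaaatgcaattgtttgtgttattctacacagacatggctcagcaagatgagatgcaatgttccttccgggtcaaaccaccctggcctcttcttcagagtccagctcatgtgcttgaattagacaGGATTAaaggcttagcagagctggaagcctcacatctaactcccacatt
Abca4: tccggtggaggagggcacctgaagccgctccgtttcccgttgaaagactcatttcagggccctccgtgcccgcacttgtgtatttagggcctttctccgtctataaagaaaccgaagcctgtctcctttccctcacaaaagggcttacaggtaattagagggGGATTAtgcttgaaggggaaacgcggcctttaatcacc
Rpe65 and Rgr are genes of the pigment epithelium and Rbp3 and Abca4 of photoreceptors, so the hexamer occurs upstream of both kinds. Over the 250 bases before the start, on either strand, it was found once in each of these 4 genes and in none of the other 6, and 6.25% of 32851 RefSeq windows of that length hold it. TGCTGAC (reverse complement GTCAGCA) was in none of the 10 genes' windows, against 3.81% of all. CATGTG (reverse complement CACATG) was in those of Rpe65, Rlbp1 and Rbp3, against 12.25% of all. A match is a run of letters and not a measured binding site.

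None of the 10 genes passed edgeR's quasi-likelihood test for genotype at a Benjamini-Hochberg adjusted p under 0.05, a threshold passed by 2.03% of the 18965 genes tested (0.859% with a higher level in K1 to K5 and 1.17% with a lower one). DESeq2 and limma-voom called none either. Before adjustment, 3 of the 10 had an edgeR p under 0.05, namely Abca4, Rbp3 and Rdh8, all lower in K1 to K5, against 13.8% of all genes tested, and DESeq2 and limma-voom also had 3. The log2 fold change, labelled knockout over wild type, was negative in 5 of the 10, against 49.6% of all genes tested. Its median was 0.02 over the 10 and 0.0018 over all genes tested. No gene of the 10 had groups that did not overlap, against 3.48% of all genes tested. Without K1, Rbp3 and Abca4 passed the adjusted threshold, in a run where 442 of 19325 genes tested passed it. K1 was the highest of K1 to K5 in both genes. Without W3 and W5 together no gene of the 10 had an unadjusted p under 0.05, and 374 of 19690 genes tested passed the adjusted threshold. In the authors' deposited table the 10 log2 fold changes ran from -0.31 (Rbp3) to 0.11 (Lrat), with adjusted p from 0.102 (Abca4) to 0.992 (Rdh11).

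**Figure D1:**
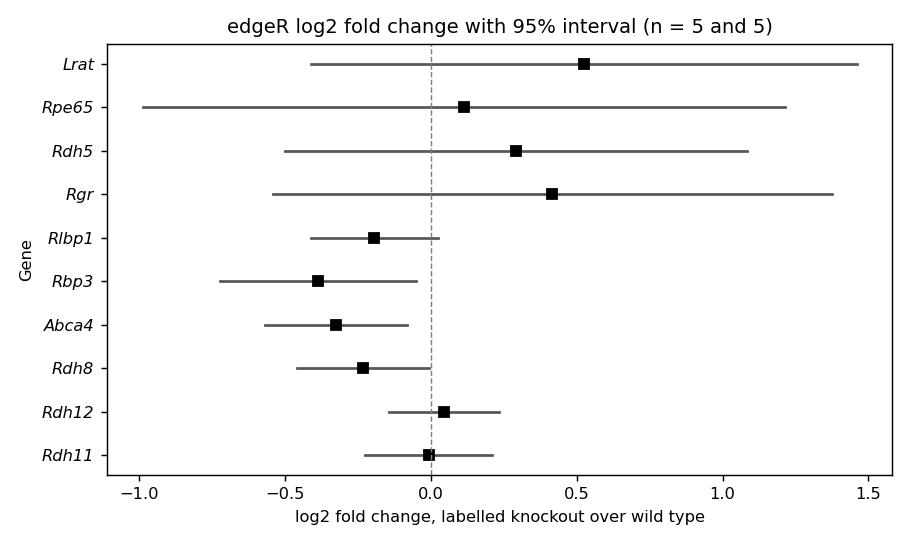
The log2 fold change of each gene (labelled knockout over wild type) is plotted with its unadjusted 95% interval from the edgeR fit, 5 libraries a group. The intervals of Rbp3, Abca4 and Rdh8 lie below 0, and those of Lrat, Rpe65, Rdh5 and Rgr are the widest of the 10.

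Total counts per library ran from 30433373 to 38857374. Il6 itself had 0 or 1 count in each wild-type library and 3 to 7 counts in each library labelled knockout, so it was not lower there. Counts this low neither bear out the labels nor speak against them. Gene-level counts do not show which part of a gene they come from and so do not check the disrupted part, and every direction given here is that of the labels. The libraries had the markers of a retina. In CPM, counts scaled to library size with TMM factors, 19 rod markers summed to 70190 to 97880 and 12 inner retina markers to 1798 to 2165, while lens markers summed to 1.29 to 2.01. In bulk libraries, fewer cells of a type and less RNA per cell cannot be told apart.

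A sum of 19 pigment epithelium markers, none of them among the 10 genes, stood at 383, 598, 216, 244 and 129.7 CPM in W1 to W5. It stood at 329, 349, 454, 299 and 297 CPM in K1 to K5. W5 and W3 thus had the least of these markers and W2 the most. The group means were 314 ± 183 CPM for wild type and 346 ± 64.2 CPM for K1 to K5 (SD, n = 5), with an exact two-sided permutation p of 0.460 for the difference in log2 sums. None of the 19 markers was called. The most abundant of them, Ttr, made up 31.6% of the sum.

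Lrat encodes lecithin retinol acyltransferase, which makes the retinyl esters that RPE65 uses. The gene (ENSMUSG00000028003.6, chr3:82892579-82903973, minus strand, GRCm38 as all gene positions here) stood at 11.01, 16.3, 2.33, 6.14 and 2.37 CPM in W1 to W5 and at 9.67, 11.7, 18.1, 8.88 and 6.22 CPM in K1 to K5. W3 and W5 lay below every other library, and the groups overlapped. The means were 7.62 ± 6.00 and 10.9 ± 4.46 CPM (SD, n = 5), and the log2 fold change of 0.52 ± 0.44 (SE) had an edgeR adjusted p of 0.658.

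Rpe65 encodes the isomerohydrolase of the pigment epithelium, the step that restores the 11-cis form. It (ENSMUSG00000028174.12, chr3:159599175-159625321, plus strand) had 1073, 1133, 154, 577 and 115 counts in W1 to W5, or 34.2, 35.0, 4.07, 14.4 and 3.40 CPM. In K1 to K5 it had 644, 987, 1038, 428 and 369 counts, or 17.5, 27.9, 28.9, 12.8 and 10.8 CPM. Wild type held both the highest libraries, W2 and W1, and the lowest, W5 and W3, with K1 to K5 between them. The means were 18.2 ± 15.6 and 19.6 ± 8.39 CPM (SD, n = 5), and the log2 fold change was 0.11 with a 95% interval of -0.99 to 1.21 (edgeR adjusted p = 0.954).

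Rdh5 encodes 11-cis-retinol dehydrogenase, which completes the path to 11-cis-retinal. It (ENSMUSG00000025350.15, chr10:128913593-128922888, minus strand) stood at 20.7, 23.2, 5.92, 8.94 and 3.61 CPM in W1 to W5 and at 13.7, 15.2, 19.8, 15.1 and 12.3 CPM in K1 to K5. W1 and W2 were the highest of the 10 libraries and W3, W4 and W5 the lowest. The log2 fold change was 0.29 ± 0.37 (SE, edgeR adjusted p = 0.795). Exons of Rdh5 share 720 bases with Bloc1s1 on the same strand, 25.6% of its merged exon length in GENCODE M21, so its counts are uncertain to that extent. None of the other 9 genes shares exon bases with another gene there.

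Rgr encodes a light-sensitive opsin of the pigment epithelium and Muller glia that takes part in making 11-cis retinoid. It (ENSMUSG00000021804.6, chr14:37034909-37048964, minus strand) stood at 96.7, 104, 17.7, 40.8 and 11.5 CPM in W1 to W5 and at 70.3, 83.3, 97.2, 63.6 and 46.7 CPM in K1 to K5. As in Rpe65, W2 was the highest library and W5 the lowest. The log2 fold change was 0.42 with a 95% interval of -0.54 to 1.37 (edgeR adjusted p = 0.750).

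**Figure D2:**
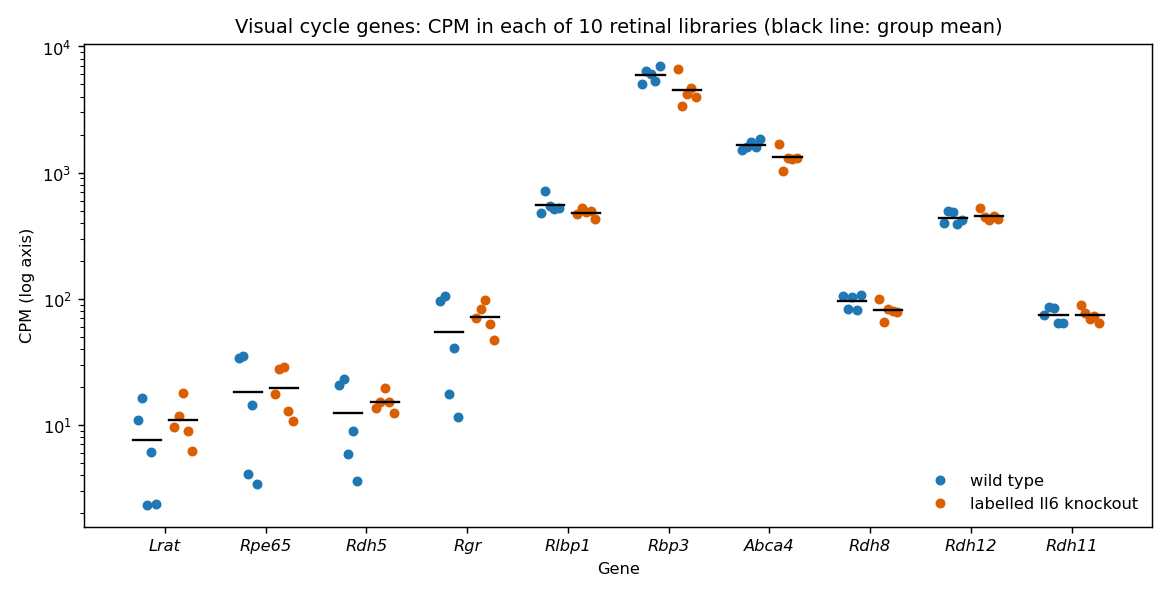
CPM on a log axis is plotted for each of the 10 genes in the 5 wild-type and the 5 labelled knockout libraries, with a line at each group mean. Lrat, Rpe65, Rdh5 and Rgr are spread widely between libraries, and K1 lies among the wild-type points in Rbp3 and Abca4.

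The spread of these 4 genes among wild-type libraries was wider than in most genes. The highest wild-type library over the lowest came to 10.3-fold in Rpe65, 9.07-fold in Rgr, 6.99-fold in Lrat, 6.43-fold in Rdh5, against a median of 1.40-fold over the genes tested. Genes at least as wide made up 0.923% for Rpe65, 1.16% for Rgr, 1.71% for Lrat, 1.95% for Rdh5. In K1 to K5 the same ratio was 2.67, 2.08, 2.90 and 1.60 in that order of genes, with a median of 1.35 over the genes tested. Whether the spread differs between the groups was not tested. In the other 6 genes the wild-type ratio ran from 1.23 (Abca4) to 1.499 (Rlbp1).

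With the pigment epithelium marker sum as a covariate, the log2 fold change was 0.36 in Lrat, 0.31 in Rgr, 0.18 in Rdh5 and -0.03 in Rpe65, and none of the 10 genes was called. Without W3 and W5 together, a choice made after the values were seen, it was -0.50 in Rpe65, -0.21 in Rdh5, -0.16 in Rgr and -0.03 in Lrat, none called. Both libraries are wild type and low in these genes, so leaving them out had to lower the values.

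These genes followed the pigment epithelium markers from library to library. Over the 10 libraries, log2 CPM of Rpe65 had Pearson r with the log2 marker sum of 0.91 (permutation p = 8e-05, adjusted 0.0006) and Spearman rho 0.95 (permutation p = 0.00017, adjusted 0.0013). For Lrat r was 0.92 (permutation p = 5e-05, adjusted 0.0005) and rho 0.96 (permutation p = 6e-05, adjusted 0.0006). For Rdh5 r was 0.96 (permutation p = 1e-05, adjusted 0.00015) and rho 0.98 (permutation p = 4e-05, adjusted 0.0006). For Rgr r was 0.93 (permutation p = 1e-05, adjusted 0.00015) and rho 1 (permutation p = 1e-05, adjusted 0.0003), as Rgr and the sum put the libraries in the same order. A p of 1e-05 is the smallest that 100000 permutations can give. Without W2 and W5, farthest from the median of the sum, r was 0.87 in Rpe65, 0.93 in Lrat, 0.94 in Rdh5 and 0.92 in Rgr. With Ttr left out of the sum, r was 0.86 in Rpe65, 0.87 in Lrat, 0.905 in Rdh5 and 0.87 in Rgr. The adjusted permutation p was then 0.0003 to 0.0028, in an alternative added after the data were seen. None of the other 6 genes passed for this sum, with adjusted permutation p of 0.33 to 0.53 for Pearson's r. The adjustment covers 30 relations, each gene with 3 marker sums, and the points share library depth and the relative scale of CPM.

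**Figure D3:**
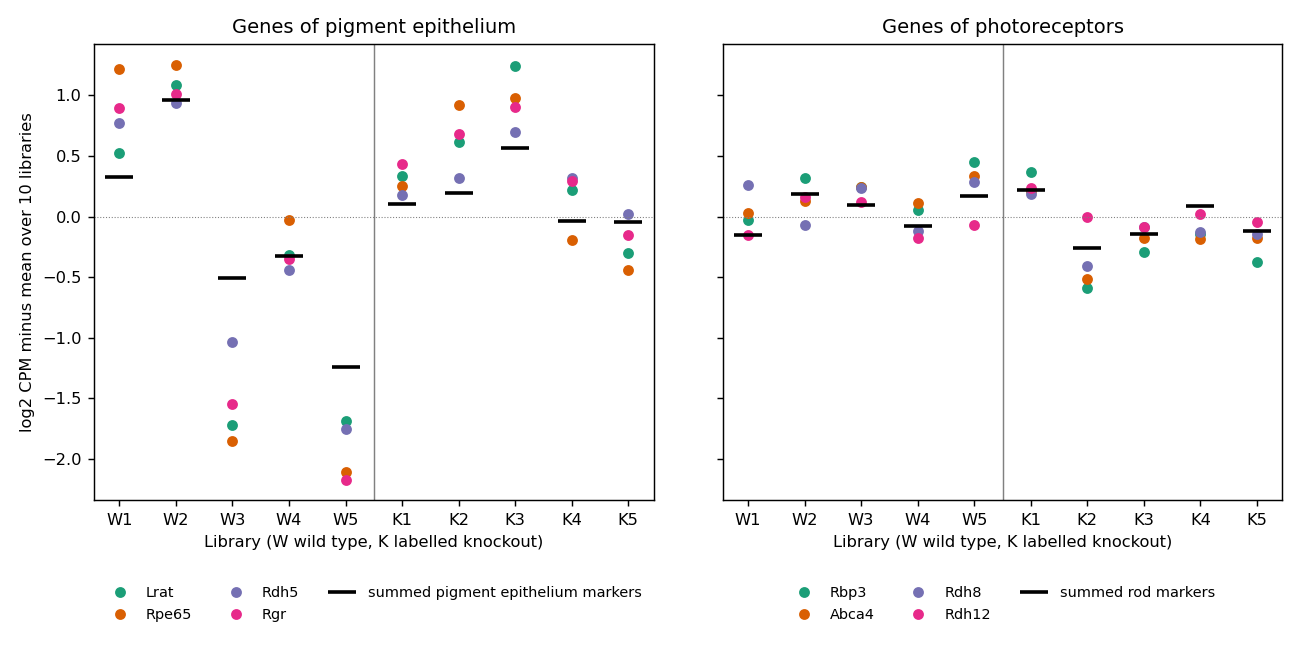
Points give log2 CPM of each gene in a library minus its mean over the 10 libraries, and bars give the log2 marker sum treated alike, for pigment epithelium (left) and photoreceptor genes (right). The 4 genes on the left lie lowest in W3 and W5, and the genes on the right span a narrower range.

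The genes most like Rpe65 among all 18965 tested were ranked by the Pearson correlation of deviations from group means in log2 CPM over the 10 libraries. The first 5 were Rgr (0.983), Lrat (0.973), Slc26a7 (0.971), Gpr143 (0.957) and Cpxm2 (0.955), and Rdh5 held rank 10 (0.943). Gpr143 encodes a receptor of pigment cell melanosomes and Slc26a7 an anion transporter. Among the 20 genes most like Rpe65 were 3 of the other visual cycle genes and 4 of the 19 pigment epithelium markers, Slc26a7, Gpr143, Slc16a8 and Ttr. Rlbp1 held rank 3095 and Abca4 rank 17191.

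Rlbp1 encodes CRALBP, and Muller glia, the radial glia that span the retina, are its source within the neural retina. The gene (ENSMUSG00000039194.15, chr7:79374870-79387048, minus strand) stood at 475, 712, 539, 511 and 520.5 CPM in W1 to W5 and at 474, 523, 491, 499 and 425 CPM in K1 to K5. W2 stood above all others, and the groups overlapped. The means were 552 ± 92.8 and 482 ± 36.6 CPM (SD, n = 5), with a log2 fold change of -0.19 ± 0.10 (SE, edgeR adjusted p = 0.433). Without W2 it was -0.08.

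Set against markers of these glia, Rlbp1 separated the groups. A sum of 16 Muller glia markers, 45.2% of it glutamine synthetase (Glul), stood at 6979, 9488, 7798, 6956 and 7132 CPM in W1 to W5 and at 7726, 8589, 8220, 7920 and 7133 CPM in K1 to K5 (exact permutation p = 0.587). Rlbp1 came to 6.81, 7.51, 6.91, 7.35 and 7.30% of that sum in W1 to W5 and to 6.134, 6.09, 5.97, 6.30 and 5.96% in K1 to K5. Every wild-type library lay above every library labelled knockout, and the means were 7.18 ± 0.30% and 6.09 ± 0.14% (SD, n = 5). The difference in log2 share was -0.24, with an exact two-sided permutation p of 0.00794, the smallest that 5 against 5 allow. It is 1 of 10 shares compared, with p unadjusted, and 2.52% of all genes tested had groups apart over the same sum. The difference ran from -0.25 to -0.22 when any 1 library was left out. It was -0.26 without Glul in the sum, an alternative added after the data were seen. Of the 16 markers only Dio2, a deiodinase that activates thyroid hormone, was called, and it fell from 119 ± 58.1 to 43.7 ± 14.1 CPM (SD, n = 5, edgeR adjusted p = 0.0118). Over the 10 libraries Rlbp1 had r with the Muller glia sum of 0.73 (permutation p = 0.018, adjusted 0.079) and rho 0.45 (permutation p = 0.19, adjusted 0.41). That r was 0.97 on deviations from group means and 0.47 without W2 and W4, the libraries farthest from the median of the sum. It was 0.34 without W2 alone and 0.78 without W4 alone, so the pooled relation, which did not pass after adjustment, rested on W2.

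**Figure D4:**
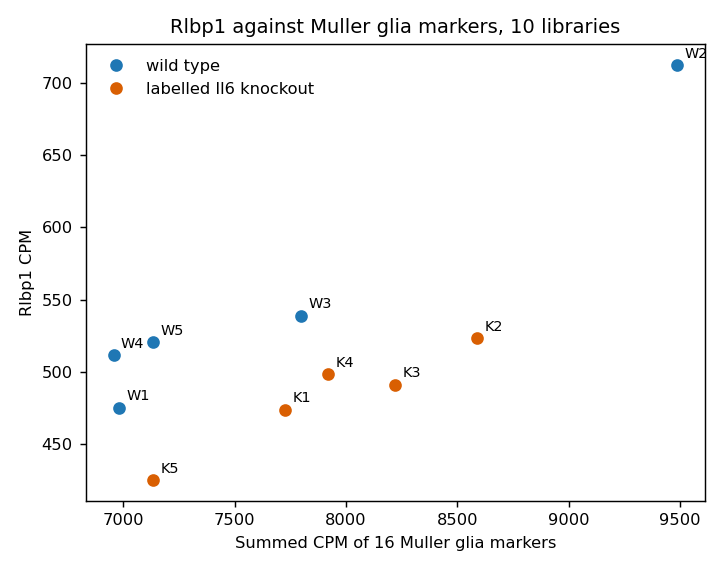
Rlbp1 CPM (y axis) is plotted against the summed CPM of 16 Muller glia markers (x axis) in each of the 10 libraries. At a like marker sum K5 lies at 425 CPM and W5 at 520.5 CPM, and K1 and K4 lie below W3. K2 and K3, with sums of 8589 and 8220 CPM, have no wild-type library at a like sum.

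Rbp3 encodes IRBP, which photoreceptors secrete. It (ENSMUSG00000041534.8, chr14:33954022-33964216, plus strand) stood at 5019, 6376, 6071, 5306 and 7011 CPM in W1 to W5 and at 6621, 3398, 4174, 4645 and 3950 CPM in K1 to K5. K2 to K5 lay below every wild-type library, and K1 lay within the wild-type range. The means were 5956 ± 807 and 4558 ± 1238 CPM (SD, n = 5), and the log2 fold change was -0.39 with a 95% interval of -0.72 to -0.05 (unadjusted p = 0.0268, edgeR adjusted p = 0.285). Without K1 it was -0.56, with an edgeR adjusted p of 0.0290. K1 was the highest of K1 to K5 in this gene, so leaving it out had to lower the value. With any other library left out alone, the edgeR adjusted p was 0.267 to 0.482. K1 also had the highest rod marker sum of the 10 libraries, 97880 CPM, against 70190 to 89030 CPM in K2 to K5, and the part of this in the result was not tested.

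Abca4 encodes the flippase of photoreceptor discs that moves all-trans-retinal, bound to a lipid, out of the lumen. It (ENSMUSG00000028125.14, chr3:122044443-122180123, plus strand) stood at 1500, 1605, 1737, 1586 and 1848 CPM in W1 to W5 and at 1699, 1026, 1296, 1288 and 1295 CPM in K1 to K5. As in Rbp3, K2 to K5 lay below every wild-type library and K1 within their range. The log2 fold change was -0.33 ± 0.11 (SE, unadjusted p = 0.0123, edgeR adjusted p = 0.196). Without K1 it was -0.43, with an edgeR adjusted p of 0.0330. Here too K1 was the highest of K1 to K5, so leaving it out had to lower the value. With any other library left out alone, the edgeR adjusted p was 0.169 to 0.384.

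Rdh8 and Rdh12 encode retinol dehydrogenases of photoreceptor outer and inner segments that reduce all-trans-retinal. Rdh8 (ENSMUSG00000053773.5, chr9:20818503-20826117, plus strand) stood at 105, 83.4, 103, 80.8 and 106 CPM in W1 to W5 and at 99.4, 65.8, 82.6, 80.3 and 79.1 CPM in K1 to K5. The groups overlapped, and the log2 fold change was -0.23 with a 95% interval of -0.46 to -0.01 (unadjusted p = 0.0456, edgeR adjusted p = 0.351). Rdh12 (ENSMUSG00000021123.12, chr12:79208914-79222665, plus strand) ran from 393 to 499 CPM in W1 to W5 and from 419 to 525 CPM in K1 to K5. Its log2 fold change of 0.05 had the narrowest 95% interval of the 10 genes, -0.14 to 0.23. Rdh11 (ENSMUSG00000066441.14, chr12:79174337-79192293, minus strand), a more widely expressed reductase of the family, ran from 64.3 to 86.2 CPM in W1 to W5 and from 64.2 to 88.6 CPM in K1 to K5. Its log2 fold change was -0.01 with a 95% interval of -0.23 to 0.21. Transcripts of Rdh11 share no run of 50 bases with any other gene of GENCODE M21, Rdh12 included.

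Taken as shares of the rod marker sum, Rbp3 and Abca4 also had lower means in K1 to K5. Rbp3 came to 6.64, 6.66, 6.78, 6.67 and 7.44% of the sum in W1 to W5 and to 6.76, 4.84, 5.48, 5.22 and 5.12% in K1 to K5, with K1 again inside the wild-type range. Abca4 came to 1.91 ± 0.13% in W1 to W5 and 1.60 ± 0.14% in K1 to K5 (SD, n = 5). The differences in log2 share were -0.33 and -0.25, each with an exact two-sided permutation p of 0.0318, unadjusted over the 10 shares. For Abca4 that p was 0.0556 without W1, W3, W4 or W5. Neither share had groups apart, against 2.19% of all genes tested over the rod sum. The rod sum had an exact permutation p of 0.429 between the groups, and of its 19 markers only Sag, the rod arrestin, was called (log2 fold change -0.67, edgeR adjusted p = 0.00267). The exact permutation p for the share was 0.0873 in Rdh12, 0.254 in Rdh8 and 0.532 in Rdh11. For the 4 pigment epithelium genes over their markers it ran from 0.103 to 0.556, none with groups apart, against 0.627% of all genes tested. Dividing by that sum did not even out the wild-type libraries, as all 4 shares were lowest in W3 and highest in W1. They ran from 1.88 to 8.92% in Rpe65 and from 8.20 to 25.2% in Rgr.

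Rbp3 followed the rod markers, with r of 0.88 (permutation p = 0.0014, adjusted 0.0087) and rho 0.85 (permutation p = 0.0029, adjusted 0.017). Without K1 and K2, farthest from the median of the rod sum, r was 0.79. Without K2 alone it was 0.82, with an adjusted permutation p of 0.079. Abca4 had r of 0.76 (permutation p = 0.012, adjusted 0.059) and rho 0.73 (permutation p = 0.02, adjusted 0.099). For Rdh12, Rdh8 and Rdh11 r was 0.67, 0.55 and 0.46, with adjusted permutation p of 0.15, 0.26 and 0.33.

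**Figure D5:**
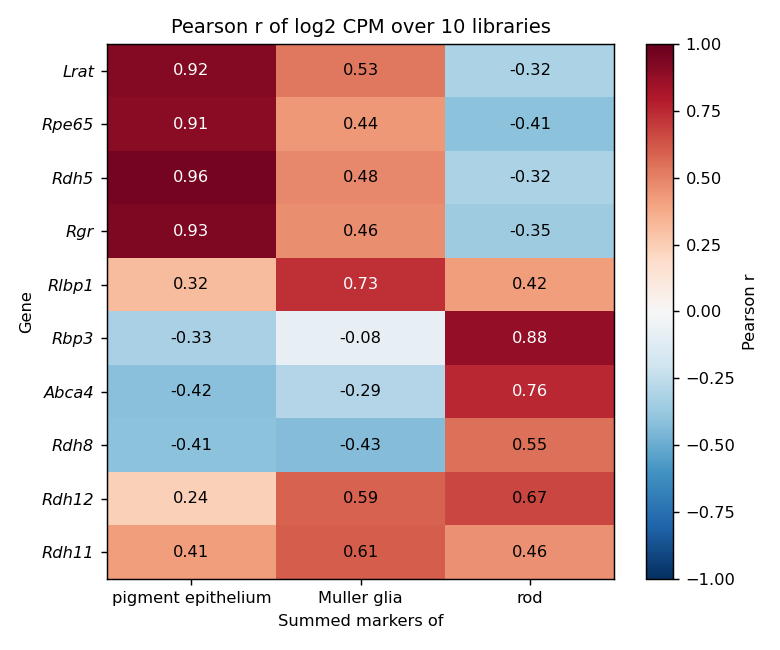
Pearson's r of log2 CPM over the 10 libraries is given for each gene with the summed markers of pigment epithelium, Muller glia and rods. Rpe65, Lrat, Rgr and Rdh5 have r of 0.91 to 0.96 with pigment epithelium markers, and Rbp3 has 0.88 with rod markers.

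Levels can be compared between genes per kilobase of merged exons. Rbp3 was highest, at 1125 ± 152 CPM per kb in W1 to W5 and 861 ± 234 in K1 to K5 (SD, n = 5), and its lowest library lay above the highest of every other gene. Rlbp1, Rdh12 and Abca4 followed, with means over the 10 libraries of 175, 151 and 124 CPM per kb and overlapping ranges between neighbours. Rdh8 came next at 63.0 CPM per kb and Rdh11 at 21.6, and the range of Rdh8 overlapped neither neighbour. The pigment epithelium genes were lowest, at 13.2 CPM per kb for Rgr, 9.77 for Rpe65, 4.93 for Rdh5 and 1.73 for Lrat, with neighbours from Rdh11 down overlapping. With the longest transcript as the length, Abca4 moved above Rdh12 and Rdh5 above Rpe65.

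Of 43 other genes of retinoid uptake, metabolism and signalling, 33 were tested, none rose and 1 fell. Over all genes tested, 0.859% were called higher in K1 to K5 and 1.17% lower. The gene that fell was Dhrs3, a retinal reductase, at 109, 144, 128, 119 and 122 CPM in W1 to W5 and 109, 97.5, 88.1, 102 and 90.5 CPM in K1 to K5. K1 stood at the level of W1, the lowest wild-type library, and K2 to K5 lay below every wild-type library. The log2 fold change was -0.36 ± 0.08 (SE, edgeR adjusted p = 0.0379). The call was lost without W3, W4, W5, K2, K3, K4 or K5 and without W3 and W5 together, and the adjusted p ran from 0.00920 to 0.156 over the alternatives, DESeq2 and limma-voom among them. Of the 33, 11 had an unadjusted edgeR p under 0.05, against 13.8% of all genes tested, and most of these 11 were higher in K1 to K5. The median log2 fold change of the 33 was 0.09, against 0.0018 over all genes tested. The other most abundant genes of this list were Scarb1, a receptor that takes up lipids and carotenoids (170.2 ± 10.9 and 197 ± 7.71 CPM, edgeR adjusted p = 0.137), and Ttr, the transport partner of retinol-binding protein (93.4 ± 83.3 and 115 ± 28.4 CPM, edgeR adjusted p = 0.843). Ttr was lowest in W5 and highest in W2, as Rpe65 and Rgr were.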

How the data were processed

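Retinal RNA of 5 wild-type and 5 labelled Il6 knockout libraries was compared by genotype label. The counts, raw and per gene, are from the table the authors deposited. GRCm38.p5, DESeq2 1.14, featureCounts 1.15.2, STAR 2.5.3a, FastQC and bcl2fastq are named in the submitters' processing notes. Not given in the sources used here are strand and multi-read handling. The deposited log2 fold changes and p-values are the authors' own, per the file headers, and the deposited mean signal was not used.

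Genes were kept with filterByExpr (minimum count 10, total 15), scaled by TMM and tested with edgeR 4.0.16 (glmQLFit, glmQLFTest, R 4.3.3), a procedure tested on simulated data. SE is the absolute log2 fold change over the square root of F, and 95% intervals follow from it. CPM uses the same library sizes, and marker sums add the CPM of a list. Alternatives were DESeq2 1.42.0, limma-voom (limma 3.58.1), other scaling and filters, a marker covariate and left-out libraries. The group p-values set a difference between groups against the spread between these libraries, which may be partly technical. As the labels do not say whether each library is a separate animal, they may not extend to animals. The 10 genes and all lists were chosen with earlier results of these data known. Named were the 10 genes, Il6, called genes of the lists, the most abundant 3 of the retinoid list and the 5 genes most like Rpe65.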

Additional observations from a re-analysis of the deposited data

Results flagged for a closer look

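In 36 groups of 5 libraries (10 genes and 8 marker sums, each by genotype) 1 library stood apart by Dixon's test, and chance gives about 1 in 20 groups. It was W2 in Rlbp1, at 712.5 CPM against 475.2 to 539.0 CPM in the other wild-type libraries. W2 also had the highest Muller glia marker sum, 9488 CPM.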

How the results depend on the processing

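No paired analysis was possible because the replicate numbers follow accession order and the labels pair no libraries. The count of the 10 genes called was 0 under every alternative run except without K1, and ran from 0 to 2 with 1 library left out. The count of all genes called, 385, was 763 with DESeq2, 704 without a low-count filter and 211 to 542 with 1 library left out. For the other retinoid genes it was 2 with DESeq2, 3 without the filter, 3 with the pigment epithelium covariate, 0 without W3 and W5, and 0 to 3 with 1 library left out. The log2 fold changes that turned were all of uncalled genes. Without W3 and W5 they were -0.025 in Lrat, -0.21 in Rdh5, -0.16 in Rgr and -0.50 in Rpe65, and with the covariate -0.034 in Rpe65. With 1 library left out they ran from -0.15 to 0.49 in Rpe65, -0.078 to 0.048 in Rdh11 and -0.013 to 0.094 in Rdh12. The difference in log2 share of Rpe65 in its marker sum, labelled knockout minus wild type, ran from -0.0048 to 0.56. Correlations that crossed 0 were those of Rdh12 (-0.0011 to 0.36) and Rlbp1 (-0.40 to 0.50) with pigment epithelium markers and of Rbp3 with Muller glia markers (-0.45 to 0.17). The cause was not tested. The lowest count of the 10 genes in a library was 80, for Lrat in W5.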

Other observations

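Retinoic acid genes of the retinoid list were chosen for mention after their values were seen. Cyp26b1, which degrades retinoic acid, had means of 1.58 ± 0.546 CPM in W1 to W5 and 3.15 ± 1.28 CPM in K1 to K5 (SD, n = 5, edgeR adjusted p = 0.124), and was called by DESeq2 (adjusted p = 0.0249) and by edgeR without a low-count filter (adjusted p = 0.0310). Rara, a retinoic acid receptor, had means of 44.9 ± 6.131 and 56.5 ± 5.94 CPM (edgeR adjusted p = 0.101), and was called without W5 (adjusted p = 0.0223). Aldh1a1, which makes retinoic acid, had an edgeR adjusted p of 0.618, and was called without W2, with an adjusted p of 0.00729.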
